A study of Mus musculus with 6 samples.

Results

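Gamma-secretase is a protease that cuts single-pass membrane proteins inside the membrane, after a sheddase has removed most of their outer part. Each complex holds 1 presenilin, which carries the active site, together with nicastrin, PEN-2 and 1 protein of the APH-1 family. In blood vessels it releases the intracellular domain of Notch receptors, which enters the nucleus and acts with RBPJ on targets such as the HEY and HES genes. Mice carry 3 APH-1 genes, Aph1a, Aph1b and Aph1c, where Aph1b and Aph1c are close copies, and complexes with different APH-1 proteins are known to differ in how they cut some substrates. The 6 subunit genes described here, of 24421 gene symbols in the files, are Psen2, Ncstn, Psenen, Aph1a, Aph1b and Aph1c, matched by symbol. Aph1c drew attention to the complex because its counts were higher under 15C4 in this comparison, where it ranked 30 by unadjusted p among 11144 tested genes. Its difference between the groups is therefore a description and no test of it is given.

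RNA was sequenced from cells that were sorted as endothelium out of subcutaneous B16F0 tumours, which come from a transplantable mouse melanoma line, in C57BL/6 mice. The mice received 15C4, an antibody that blocks the secreted glycoprotein LRG1, or control IgG, each at 50 mg/kg every 3 days, and tumours grew for 17 days. There were 3 libraries in the 15C4 group and 3 in the IgG group. The labels give no age, sex or genotype beyond the strain and do not say whether libraries came from separate or pooled animals, so the spread between them may be partly technical.

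Counts per library ranged over 6392700 to 19572202 in the 15C4 group and 5175600 to 11669085 in the IgG group. Levels are counts scaled to the total of a library (CPM) unless a length is named. A list of 13 melanocyte genes summed to between 24496 and 29459 CPM in the 6 libraries, while the sum over 22 pan-endothelial genes was 1725, 3537 and 1654 CPM under 15C4, against 2092, 2963 and 237 CPM under IgG. Melanocyte transcripts thus exceeded pan-endothelial ones by these lists in every library, and IgG 3 stood apart with the lowest endothelial sum. The pan-endothelial markers Erg and Cldn5 were each at 0 counts in 1 library. The sum of T and NK cell markers was 219, 4.45 and 21.3 CPM under 15C4, against 507, 12.2 and 8.74 CPM under IgG, and lymphatic markers reached 1168 CPM in IgG 2. Macrophage markers summed to between 0.469 and 179 CPM and fibroblast markers to between 1.71 and 153 CPM over the 6 libraries. Lrg1 itself was counted 0, 65 and 0 times under 15C4, against 4, 190 and 0 times under IgG. In such bulk samples fewer cells of a type and less RNA per cell cannot be told apart.

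Aph1b and Aph1c lie near each other on chromosome 9, both on the minus strand. In GENCODE M21 on GRCm38, Aph1c (ENSMUSG00000053040.13) spans 66814994 to 66834726 and Aph1b (ENSMUSG00000032375.15) spans 66775202 to 66795490, with 19503 bases between them that hold 3 other annotated genes, the protein-coding Gm10647, the antisense gene BC050972 and the pseudogene Ppp1r2-ps4, none of them analysed here. Their coding sequences differ at 32 of 774 aligned positions, an identity of 95.9%, and the differences crowd at the start. The stretch of 150 coding bases that differs most, at coding positions 4 to 153 of both, is shown because reads from it can be assigned to 1 of the copies. Capitals mark the 18 bases that differ.
Aph1c: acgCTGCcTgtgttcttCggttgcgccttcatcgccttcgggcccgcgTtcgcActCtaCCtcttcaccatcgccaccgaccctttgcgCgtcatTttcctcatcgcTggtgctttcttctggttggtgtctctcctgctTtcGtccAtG
Aph1b: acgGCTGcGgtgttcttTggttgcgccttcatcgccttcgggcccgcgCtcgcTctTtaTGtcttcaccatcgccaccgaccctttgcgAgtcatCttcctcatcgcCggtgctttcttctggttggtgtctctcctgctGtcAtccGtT
Downstream, 341 coding bases in a row, positions 355 to 695 of Aph1c, are identical in both. Of all stretches of 100 bases in the Aph1c transcript, 8.83% also occur in Aph1b, and for stretches of 50 bases the share is 18.5%. The 3′ untranslated regions, which make up most of both transcripts, are 62.3% identical and so more distinct. The sources used here give neither the read length nor the treatment of reads that match both copies. RefSeq lists Aph1b among the synonyms of Aph1c, and Aph1c among those of Aph1b. Which copy a symbol meant in the authors' annotation could therefore not be checked, and the counts of the pair are also given summed. By contrast, Aph1a on chromosome 3 (95893969 to 95898288) is 59.1% identical to Aph1c in its coding sequence.

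Aph1c had 2268, 2177 and 1245 counts in the 15C4 libraries, which is 270, 111 and 195 CPM. In the IgG libraries it had 317, 390 and 970 counts, which is 61.2, 40.4 and 83.1 CPM. The lowest 15C4 library lay above the highest IgG library, so the groups did not overlap. The mean was 192 ± 79.4 CPM under 15C4, against 61.6 ± 21.3 CPM under IgG (SD, n = 3 each), and the fitted log2 fold change was 1.71 with an SE of 0.46, or 3.27-fold. Aph1c was the 1 member of 6 whose groups did not overlap with 15C4 higher, against 2.88% of all tested genes. The same separation with IgG higher held for 6.64% of tested genes and for no member. Since Aph1c was chosen from this contrast, nothing is read from that count. The T and NK cell marker sum was high both in 15C4 1, which held the most Aph1c, and in IgG 1, and its part in the difference was not tested. IgG 3, with the fewest endothelial transcripts, had the most Aph1c of the IgG libraries, and without it the log2 fold change was 2.02 (SE 0.53).

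Aph1b had 17.7, 14.8 and 27.8 CPM under 15C4, against 36.3, 26.3 and 6.94 CPM under IgG. The IgG values enclosed all of the 15C4 values, with IgG 1 highest and IgG 3 lowest. Its log2 fold change was -0.09 (SE 0.80), and the difference from that of Aph1c was not tested. The summed counts of Aph1b and Aph1c, which do not depend on how counted reads were split between the copies, came to 212 ± 81.4 CPM under 15C4, against 84.8 ± 16.05 CPM under IgG (SD, n = 3 each). The sums did not overlap either, with 126 CPM as the lowest 15C4 value and 97.6 CPM as the highest IgG value. The log2 fold change of the sum was 1.40 (SE 0.40).

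Aph1a, which mouse embryos need to develop, was lower than Aph1c per kilobase of exon in all 6 libraries. It had 29.2, 7.10 and 5.48 CPM under 15C4, against 17.0, 9.96 and 7.20 CPM under IgG. The groups overlapped, 15C4 1 held the highest value of all, and the log2 fold change was 0.31 (SE 0.96). Without 15C4 1 it was -0.70. Counts of Aph1a are uncertain for a further reason. Of all stretches of 100 bases in its longest principal transcript, 42.6% also occur in transcripts of Car14, Jagn1 or Gm15429. Car14 runs on the opposite strand and shares 445 exon bases with Aph1a. Car14 lay between 44.1 and 158 CPM, and the sources used here give no strand setting for the counting.

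**Figure D1:**
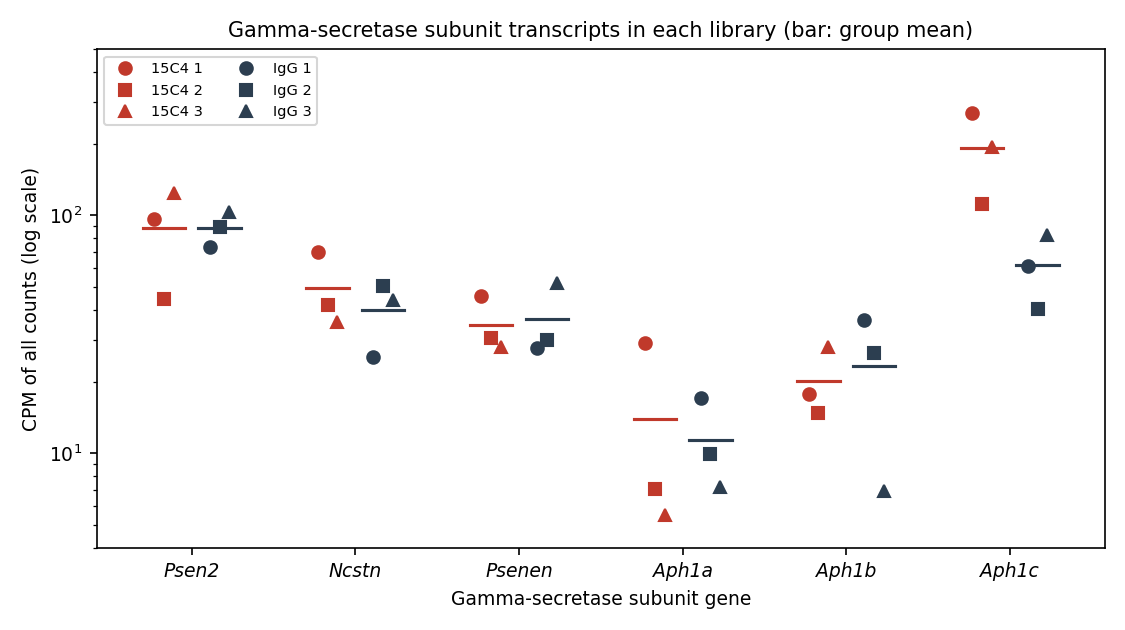
CPM of all counts on a log axis for the 6 subunit genes, with 1 point per library, 15C4 libraries in red and IgG libraries in dark blue, and a bar at each group mean. For Aph1c the 3 red points, from 111 CPM up, lie above the 3 dark blue points, which reach 83.1 CPM, while the groups overlap for the other 5 genes.

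The share of each gene in the summed APH-1 counts of a library does not depend on scaling between libraries. Aph1c took 85.2% of these counts in 15C4 1 (95% Wilson interval 83.8 to 86.5%), 83.6% in 15C4 2 (82.1 to 84.9%) and 85.4% in 15C4 3 (83.5 to 87.1%). It took 53.5% in IgG 1 (49.4 to 57.4%), 52.7% in IgG 2 (49.1 to 56.3%) and 85.5% in IgG 3 (83.3 to 87.4%). The intervals cover only the counting error of independent reads. Copies made by PCR were counted without molecular identifiers, so the intervals may be too narrow. IgG 1 and IgG 2 lay below the 15C4 libraries, while the share in IgG 3 was within the counting interval of 15C4 1 and 15C4 3, so on this measure the groups were not separated. Aph1b took 5.60, 11.1 and 12.2% in the 15C4 libraries and 31.7, 34.3 and 7.14% in IgG 1, 2 and 3. Counts of Aph1c per count of Aph1b were 15.2, 7.53 and 6.99 in the 15C4 libraries, against 1.69, 1.54 and 11.98 in the IgG libraries. The composition of APH-1 transcripts in IgG 3 came with little Aph1b (81 counts), and the levels of Aph1c there stayed below those of every 15C4 library.

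**Figure D2:**
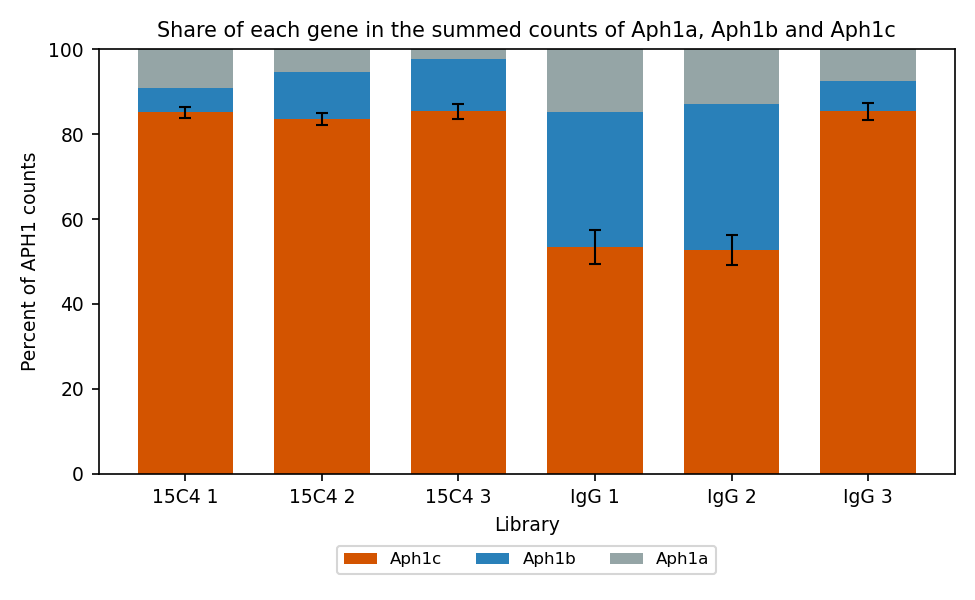
Percent of the summed counts of Aph1a, Aph1b and Aph1c held by each gene in each library, with the 95% Wilson interval of the Aph1c share as a black bar. Aph1c holds between 83.6 and 85.4% in the 15C4 libraries, 53.5% in IgG 1, 52.7% in IgG 2 and 85.5% in IgG 3.

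The promoters of both copies are shown because the copies differ in level per kilobase although they lie close together. They are the 250 bases before the start used in RefSeq's promoter set on GRCm38.p6, minus strand, at chr9:66834707-66834956 for Aph1c and chr9:66795424-66795673 for Aph1b. RefSeq's Aph1b gene reaches to 66797345, so the Aph1b window lies inside that gene and other starts of Aph1b may exist, and both windows overlap the ends of the GENCODE genes. Capitals mark CCGCCC, the core of the GC box that SP family factors bind, on either strand.
Aph1c: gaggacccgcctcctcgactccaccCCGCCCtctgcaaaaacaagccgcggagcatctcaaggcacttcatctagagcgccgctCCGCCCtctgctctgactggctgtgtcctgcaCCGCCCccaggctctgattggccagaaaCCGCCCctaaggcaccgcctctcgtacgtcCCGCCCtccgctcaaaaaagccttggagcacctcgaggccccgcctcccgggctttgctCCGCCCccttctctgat
Aph1b: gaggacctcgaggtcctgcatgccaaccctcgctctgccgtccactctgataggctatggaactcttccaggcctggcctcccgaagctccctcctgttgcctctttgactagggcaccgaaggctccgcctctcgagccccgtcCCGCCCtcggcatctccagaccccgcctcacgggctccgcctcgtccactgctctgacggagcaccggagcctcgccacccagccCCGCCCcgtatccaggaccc
CCGCCC or its reverse complement GGGCGG occurs 6 times in the Aph1c window and 2 times in that of Aph1b, and 32.7% of 32851 promoters of this length hold it at least once. CCAAT, or ATTGG, occurs once in the Aph1c window and not in that of Aph1b, with a share of 33.8% over all promoters. TGGGAA or TTCCCA, the core bound by RBPJ, is in neither window and in 21.6% of all promoters. No match of one motif overlapped a match of another. Both windows are rich in G and C, at 65.6% for Aph1c and 68.0% for Aph1b, against a median of 52.4% over all promoters. The windows are 51.3% identical. These matches describe the sequence and show no binding.

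Among the other subunits, Psen2 encodes a presenilin, a catalytic subunit that sits mainly in late endosomes and lysosomes. Psen2 (chromosome 1, 180227004 to 180263438) had 96.5, 44.6 and 124 CPM under 15C4, against 73.6, 89.5 and 103 CPM under IgG. The 15C4 libraries held both the lowest and the highest value, and the means were 88.4 ± 40.3 CPM under 15C4, against 88.9 ± 14.9 CPM under IgG (SD, n = 3 each). Its log2 fold change was 0.09 (SE 0.48). No stretch of 50 bases in the principal transcript examined occurs in another gene's transcripts, which held for no other member. That transcript of Psen2 has 2020 bases, against 4332 bases of annotated exon, and exon bases outside it were not examined for sharing.

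Ncstn encodes nicastrin, the large glycoprotein of the complex that limits access to the active site to substrates with a short outer stub. Ncstn (chromosome 1, 172066013 to 172082795) had 70.5, 42.2 and 35.5 CPM under 15C4, against 25.5, 50.7 and 44.0 CPM under IgG. The groups overlapped, with 15C4 1 highest and IgG 1 lowest, and the log2 fold change was 0.37 (SE 0.53). It shares 195 exon bases with Copa on the opposite strand, and Copa lay between 107 and 303 CPM.

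Psenen encodes PEN-2, the small subunit needed for the presenilin to be cut into its active form. Psenen (chromosome 7, 30561863 to 30563627) had 45.8, 30.5 and 27.8 CPM under 15C4, against 27.6, 29.9 and 52.2 CPM under IgG. The IgG values enclosed the 15C4 values, and the log2 fold change was -0.01 (SE 0.56). Psenen shares 119 exon bases with U2af1l4 on the opposite strand. Of its stretches of 100 bases, 34.0% also occur in Gm12396.

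Counts of Aph1c per count of Ncstn, which again need no scaling, were 3.83, 2.64 and 5.48 under 15C4, against 2.40, 0.797 and 1.89 under IgG. All 3 ratios under 15C4 lay above all 3 under IgG. Since Aph1c was chosen from this contrast, nothing is read from that. Counts of Aph1c per count of Aph1a overlapped, at 9.26 to 35.6 under 15C4 and 3.60 to 11.5 under IgG, as did those per count of Aph1b. The summed CPM of the 6 members was 530, 250 and 415 under 15C4, against 241, 247 and 297 under IgG. On this sum the groups overlapped, because 15C4 2 lay below IgG 3.

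Levels between genes were compared per kilobase of annotated exon (CPM per kb). In the 15C4 libraries the order of the means was Aph1c at 36.9 ± 15.3, Psenen at 27.2 ± 7.61, Psen2 at 20.4 ± 9.31, Ncstn at 12.4 ± 4.67, Aph1a at 4.03 ± 3.84 and Aph1b at 3.90 ± 1.33 CPM per kb (SD, n = 3 each). In the IgG libraries it was Psenen at 28.7 ± 10.7, Psen2 at 20.5 ± 3.44, Aph1c at 11.8 ± 4.10, Ncstn at 10.1 ± 3.29, Aph1b at 4.49 ± 2.89 and Aph1a at 3.30 ± 1.47 CPM per kb (SD, n = 3 each). The ranges of neighbours in either order overlapped, save for a gap under IgG between Psen2, at least 17.0, and Aph1c, at most 15.97 CPM per kb, and one under 15C4 between Ncstn, at least 8.93, and Aph1a, at most 8.45 CPM per kb. By these lengths Aph1c stood first by its mean in the 15C4 libraries and behind Psenen and Psen2 in the IgG libraries. The lengths merge all annotated exons, at 5205 bases for Aph1c, 4332 for Psen2 and 1275 for Psenen. The principal transcripts examined hold 5205, 2020 and 708 bases. With those lengths Psenen and Psen2 would stand higher and Aph1c would not, so its place depends on the length used.

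**Figure D3:**
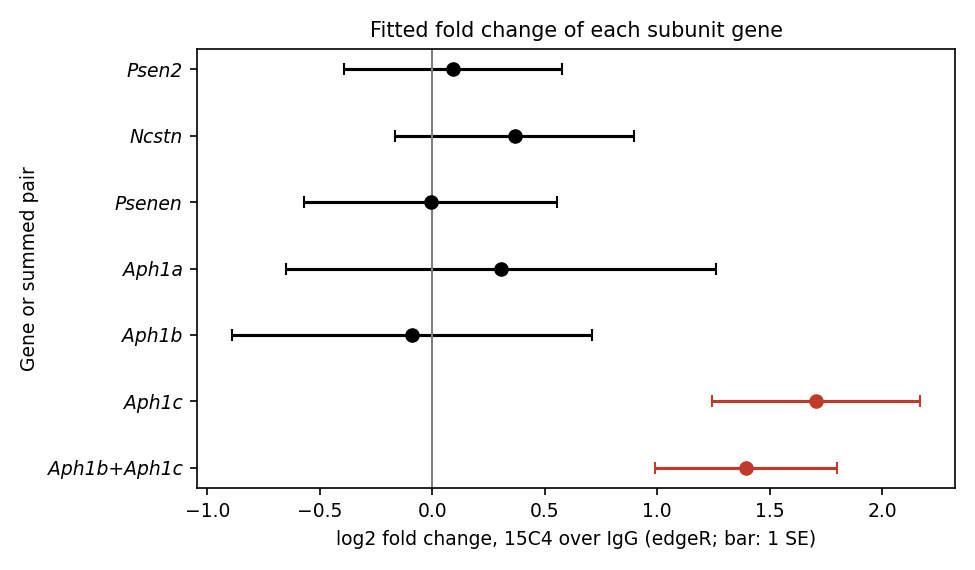
Log2 fold change, 15C4 over IgG, of each subunit gene and of the summed counts of Aph1b and Aph1c, from edgeR's quasi-likelihood fit across all tested genes, with a bar of 1 SE. Aph1c lies at 1.71 and the sum at 1.40, while the other 5 genes lie between -0.09 and 0.37 with bars that cross 0.

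In the fit across all genes, 0 of 11144 genes passed an adjusted p of 0.05 (edgeR's quasi-likelihood test with Benjamini-Hochberg adjustment), so the background of calls was 0%, and nothing is read from it about Aph1c. The unadjusted p was under 0.05 for 288 genes, or 2.58%. limma-voom likewise called 0 genes, with 461, or 4.14%, at the unadjusted threshold. DESeq2 called 26 genes, or 0.252% of those it gave an adjusted p, and Aph1c was not among them. In the authors' deposited table, Aph1c had a log2 fold change of -1.76, which runs as IgG over 15C4 and so is also higher in 15C4. That table holds an adjusted p under 0.05 for 507 of 14112 genes, or 3.59%, of which 124 were higher in 15C4. Aph1c is among these 124, and since it was chosen from this contrast nothing is read from that. The adjusted p of the other 5 members lay between 0.817 and 0.996 in that table. Of the 6 members, 4 were fitted above 0, with a median log2 fold change of 0.20. Over all tested genes 50.7% were fitted above 0 and the median was 0.01.

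Other genes of the pathway were taken from lists, and none of their members passed the test. Among 36 known substrates of gamma-secretase, 23 had enough counts to be tested, of which 14 were fitted above and 9 below 0, with a median log2 fold change of 0.23. The most abundant were Cd44, a hyaluronan receptor, at 1562 ± 299 CPM under 15C4, against 1734 ± 358 CPM under IgG, and Cdh5, the endothelial cadherin of cell junctions, at 905 ± 372 CPM under 15C4, against 624 ± 577 CPM under IgG (SD, n = 3 each). Cdh5 was at 46.3 CPM in IgG 3, the library with the lowest endothelial sum. Aplp2, a relative of the amyloid precursor protein, was at 638 ± 40.7 CPM under 15C4, against 542 ± 287 CPM under IgG (SD, n = 3 each). The substrates Nrg1, Ngfr, Dcc and Il1r2 were at 0 counts in all 6 libraries. Cdh2, the neural cadherin, was the 1 substrate whose groups did not overlap, at 8.0 to 21.7 CPM in 15C4 and 27.1 to 38.8 CPM in IgG, and is named after its values were seen. Over all tested genes the groups did not overlap with IgG higher for 6.64%, so nothing is read from 1 of 23.

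The 5 sheddases, which make the first cut, were all tested, with 3 fitted above and 2 below 0 and a median log2 fold change of 0.07. Adam10, the main sheddase of Notch, was at 447 ± 91.6 CPM under 15C4, against 452 ± 152 CPM under IgG (SD, n = 3 each). Adam9 was at 226 ± 131 CPM under 15C4, against 239 ± 16.3 CPM under IgG, and Bace2, which also cuts the melanosome protein PMEL, at 197 ± 63.8 CPM under 15C4, against 217 ± 69.0 CPM under IgG (SD, n = 3 each). Of 8 other proteases that cut within membranes, 2 were fitted above and 6 below 0, with a median of -0.31. With 1 library left out that median lay between -0.26 and -0.06, and with the replicate number as a block it was -0.66. The most abundant were the signal peptide peptidase-like Sppl2a at 194 ± 67.9 CPM under 15C4, against 185 ± 52.8 CPM under IgG, the mitochondrial rhomboid Parl at 65.3 ± 17.7 CPM under 15C4, against 69.6 ± 19.2 CPM under IgG, and the signal peptide peptidase H13 at 60.3 ± 18.3 CPM under 15C4, against 61.7 ± 14.1 CPM under IgG (SD, n = 3 each). Every one of these means differed by less than the SD of its groups.

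Of 6 genes for assembly and modulation of the complex, 3 were fitted above and 3 below 0, with a median log2 fold change of 0.03. Ifitm3, an interferon-induced membrane protein reported to bind gamma-secretase, was at 1061 ± 153 CPM under 15C4, against 1348 ± 221 CPM under IgG (SD, n = 3 each). Bsg, which encodes basigin, was at 616 ± 208 CPM under 15C4, against 1209 ± 605 CPM under IgG, and Hif1a, the hypoxia-inducible subunit, at 322 ± 135 CPM under 15C4, against 488 ± 138 CPM under IgG (SD, n = 3 each). Each of these 3 overlapped between the groups, while the sum over the 6 genes did not, at 2394, 2635 and 2516 CPM under 15C4, against 2812, 3087 and 4336 CPM under IgG. Among single tested genes, 6.64% separated with IgG higher. The sum is weighted to the most abundant genes and the median of the list was 0.03, so nothing is read from it about the list as a group. Of 13 Notch ligands, nuclear factors and targets, 11 were tested, 8 fitted above and 3 below 0, with a median of 0.39. By level the first were the target Hes1 at 87.0 ± 117 CPM under 15C4, against 115 ± 67.6 CPM under IgG, the ligand Jag1 at 72.6 ± 10.2 CPM under 15C4, against 40.4 ± 15.4 CPM under IgG, and the ligand Dll4 at 59.5 ± 33.0 CPM under 15C4, against 49.2 ± 29.2 CPM under IgG (SD, n = 3 each). Jag1 and the target Hey1, at 42.1 to 81.3 CPM in 15C4 and 7.37 to 27.9 CPM in IgG, did not overlap between the groups, and Hey1 is named after its values were seen. These are 2 of 11 tested genes, where 2.88% of all tested genes did not overlap with 15C4 higher, and neither passed the test across all genes. The tested targets Hes1, Hey2 and Nrarp overlapped, and Hey1 was lowest in IgG 3, the library with the lowest endothelial sum. The lists were chosen with earlier results of these data known, so nothing is read from this count.

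The genes most like Aph1c over the 6 libraries were found by the root mean square distance between profiles of log2(CPM + 1), each centred on its own mean, among 8574 tested genes with a mean of at least 10 CPM. The nearest 5 were Rbak, a zinc finger repressor gene (distance 0.23), Ncbp2, a subunit of the nuclear cap-binding complex (0.25), Trmt13, a tRNA methyltransferase (0.29), Elp3, the catalytic subunit of Elongator (0.33), and Lrrc8d, a subunit of volume-regulated anion channels (0.34). Ncbp2 had 187, 86.3 and 136 CPM under 15C4, against 56.8, 37.5 and 93.6 CPM under IgG. Rbak had 19.6, 8.23 and 17.4 CPM under 15C4, against 6.18, 3.32 and 8.83 CPM under IgG. Both had an IgG 3 value above that of 15C4 2, so their groups overlapped. Those of Trmt13, Elp3 and Lrrc8d did not, like those of Aph1c. Their lowest 15C4 values were 20.5, 17.5 and 30.6 CPM, above highest IgG values of 19.5, 14.8 and 17.4 CPM. This separation held for 2.88% of all tested genes. Since these genes were picked for their likeness to Aph1c, nothing is read from it. The other members were farther from Aph1c. Ncstn lay at a distance of 0.86 (rank 1085), Psenen at 0.89, Psen2 at 0.93, Aph1a at 1.08 and Aph1b at 1.25 (rank 4940), where the median over all candidates was 1.18.

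**Figure D4:**
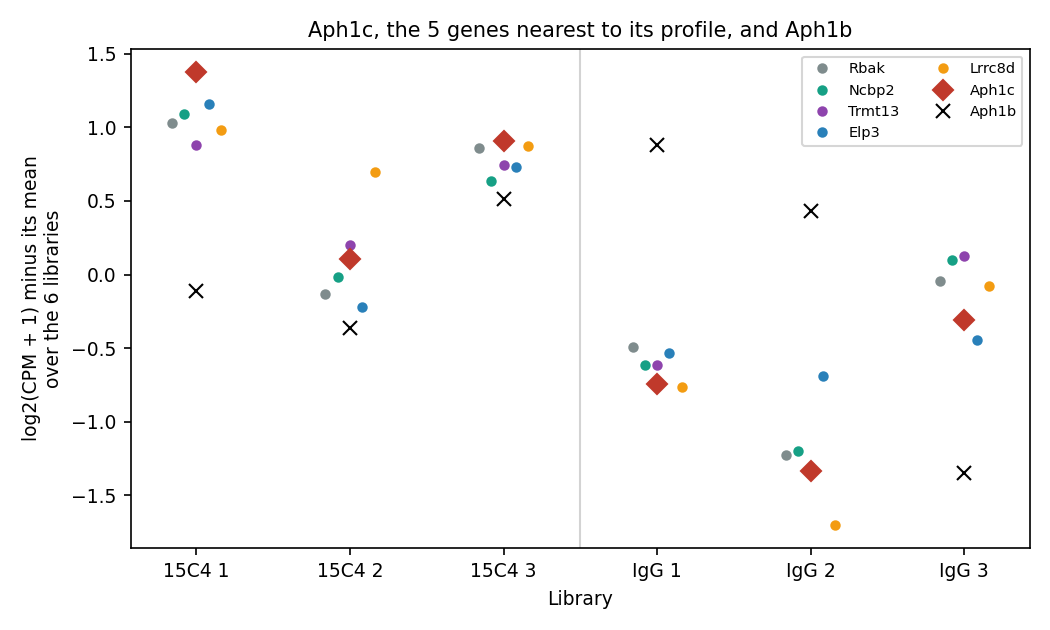
Log2(CPM + 1) minus its mean over the 6 libraries for Aph1c (red diamonds), the 5 genes nearest to it (coloured points) and Aph1b (crosses), with the 15C4 libraries on the left and points set slightly apart sideways. Aph1c and its nearest genes are highest in 15C4 1 and lowest in IgG 2, while Aph1b, at a distance of 1.25, is highest in IgG 1 and lowest in IgG 3.

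The nearest protein-coding neighbours of the pair with a row in the counts were Car12, 8356 bases before Aph1b, and Rab8b, 8937 bases after Aph1c. Car12, a carbonic anhydrase gene, had at most 0.428 CPM in any library and was too low to be tested. Rab8b, which encodes a small GTPase of vesicle transport, had 115, 81.7 and 206 CPM under 15C4, against 97.6, 126 and 69.3 CPM under IgG. Its groups overlapped and its log2 fold change was 0.58 (SE 0.48).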

How the data were processed

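Whole-number counts per gene symbol were deposited by the authors for each of 6 libraries, which per the labels' protocols were built from PCR-amplified cDNA by Nextera XT. The submitters' processing notes list fastp, STAR 2.5b, featureCounts and DESeq2 as tools, and mm10 and mm9 as builds, with no role for either build. The sources used here give no annotation and no strand setting. The authors' series table held equal counts for the 24394 symbols spelled alike. Per the file headers it also gives a log2 fold change, by its sign IgG over 15C4, and a p-value with its adjusted value.

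Counts were fitted with edgeR 4.0.16 (R 4.3.3), with TMM, filterByExpr and treatment as the only term. All 6 members passed the filter. The SE is the absolute log2 fold change over the square root of F. CPM uses all counts. limma 3.58.1 and DESeq2 1.42.0 were alternatives. Coordinates and lengths were read from GENCODE M21 (GRCm38), where 23376 of 24421 symbols were found, and promoters from RefSeq GRCm38.p6, where all 6 members matched. For Hm13 the older symbol H13 was used. Members and lists were chosen with earlier results of these data known. The text names all members, the 3 most abundant genes of each list, the 5 genes nearest to Aph1c and the locus neighbours, with exceptions named as such.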

Additional observations from a re-analysis of the deposited data

How the results depend on the processing

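With 1 library left out in turn, the log2 fold change of Aph1c ranged over 1.47 to 2.02 and that of the summed pair over 1.21 to 1.66. Over the 8 other settings, which changed the scaling, the filter or the tool or added a block, the ranges were 1.61 to 1.74 for Aph1c and 1.29 to 1.43 for the sum. The rank of Aph1c by unadjusted p, 30 in the main fit, was 12 with the replicate number as a block and 316 without 15C4 1, the extremes over all settings. Between 3 and 6 members were fitted above 0 over all settings. The number of genes past the threshold was 0 with each library left out, 1 without a filter and 26 with DESeq2. Medians with 1 library left out ranged over -0.26 to 0.10 for assembly and modulation genes, lowest without 15C4 3 and -0.17 without IgG 3. For substrates they ranged over -0.18 (without IgG 3) to 0.65 (without IgG 2), for other membrane proteases over -0.26 to -0.06, for sheddases over -0.06 to 0.17, and for Notch ligands, nuclear factors and targets over 0.23 to 0.76. The causes were not tested. With the replicate number as a block, 0 genes passed, Aph1c was at 1.70, and the medians of other membrane proteases and of Notch ligands, nuclear factors and targets were -0.66 and 0.12. Same-numbered libraries correlated at -0.05, 0.06 and 0.11 in their deviations from the group means. 15C4 2 and 15C4 3 correlated best with their own number, while 15C4 1 did not. With correlations this low and 3 libraries per group, whether same-numbered libraries were paired cannot be told, and the labels give only a number. The sign of the Aph1a, Aph1b, Psen2 and Psenen fold changes depended on the setting. Low counts limit Aph1a, with 35 counts in 15C4 3.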
